A study of Mus musculus with 17 samples.

Results

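The change of gene expression in the normal mouse testis between E15.5 and the day of birth (PND 0) was taken from 6 of the 17 RNA sequencing libraries of the study, the 3 titled WT at E15.5 and the 3 titled WT at PND 0. All were testes of Inha wildtype mice on a C57/Bl6 background, bred from heterozygous parents and given no treatment, and the Inha KO littermates and the E13.5 testes of the series were left out of the main comparison. The genotype field reads KO for the 3 E15.5 samples titled WT, and the titles were followed. In these 3 libraries Inha, the gene that the KO line lacks, stood at 649, 549 and 623 CPM (counts scaled to a common library total by TMM normalisation). The labels do not state whether the libraries came from separate litters, and 2 of the 3 PND 0 titles share a leading number, so p-values measure only the spread between these samples, which may be technical.

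During this interval the testis consists of cords, in which Sertoli cells enclose the germ cells (gonocytes), and of an interstitium with fetal Leydig cells, vessels, macrophages and stromal cells, while smooth muscle-like peritubular cells line the cords. Gonocytes are known to stop dividing in fetal life, to shut down the pluripotency genes carried over from primordial germ cells, and to restore DNA methylation at transposons with help from PIWI proteins and their small RNAs (piRNAs). Fetal Leydig cells make androgens from cholesterol, and in the fetal mouse testis Sertoli cells are known to carry out the last step to testosterone.

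Total counts of the 6 libraries lay between 21066341 and 22042380, and 17441 of 19110 genes were tested after the filter on low counts. Log2 CPM correlated across genes at 0.991 within E15.5, at 0.985 to 0.990 within PND 0 and at 0.949 to 0.967 between the ages. On the second principal component of log2 CPM (10.1% of the variance) PND 0 replicates 1, 2 and 3 lay at 29.4, -3 and -29.8, so replicates 1 and 3 were equally far out. The genes of the testis surface set replicate 1 apart. Markers of the mesothelium that covers the testis (7 genes, a list added after values were seen) summed to 12.1 CPM in it, against 139.7 and 170.2 CPM in the other PND 0 libraries and 178, 134 and 167 CPM at E15.5, and its part in other results was not tested beyond leaving the library out. The liver genes (6 tested) summed to 92.8, 10.6 and 16.8 CPM at E15.5 and 56.8, 19.2 and 17 CPM at PND 0, and the neutrophil genes (9 tested) to 151, 17.4 and 21.1 and 109, 48.1 and 46.6 CPM, both highest in replicate 1 of each age. Xist was at no more than 1.81 CPM in every library, and genes of the Y chromosome were detected in all of them. The erythroid list fell (12 of 13 tested genes lower, against 10.8% of all genes). Its sum was 2913, 5482 and 2836 CPM at E15.5 and 527, 344 and 489 CPM at PND 0. The part of blood in the results that follow was not tested.

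Between E15.5 and PND 0, 1980 genes were called higher (11.4% of those tested) and 1889 lower (10.8%), 22.2% in all, at an adjusted p below 0.05 and a change of at least 1.5-fold (edgeR's quasi-likelihood test with Benjamini-Hochberg adjustment over all genes tested). Of these, 216 rose and 227 fell at least 4-fold. The median log2 fold change over all genes was 0, and its 5th and 95th percentiles were -1.06 and 1.14. The libraries of the 2 ages did not overlap for 9489 genes (54.4%). Genes of germ cells, piRNAs, pluripotency, cholesterol synthesis and fetal Leydig cells lay mostly below 0, and those of Sertoli cells and of complement and antigen presentation mostly above it. Several lists share genes, so their counts are not separate results.

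**Figure D1:**
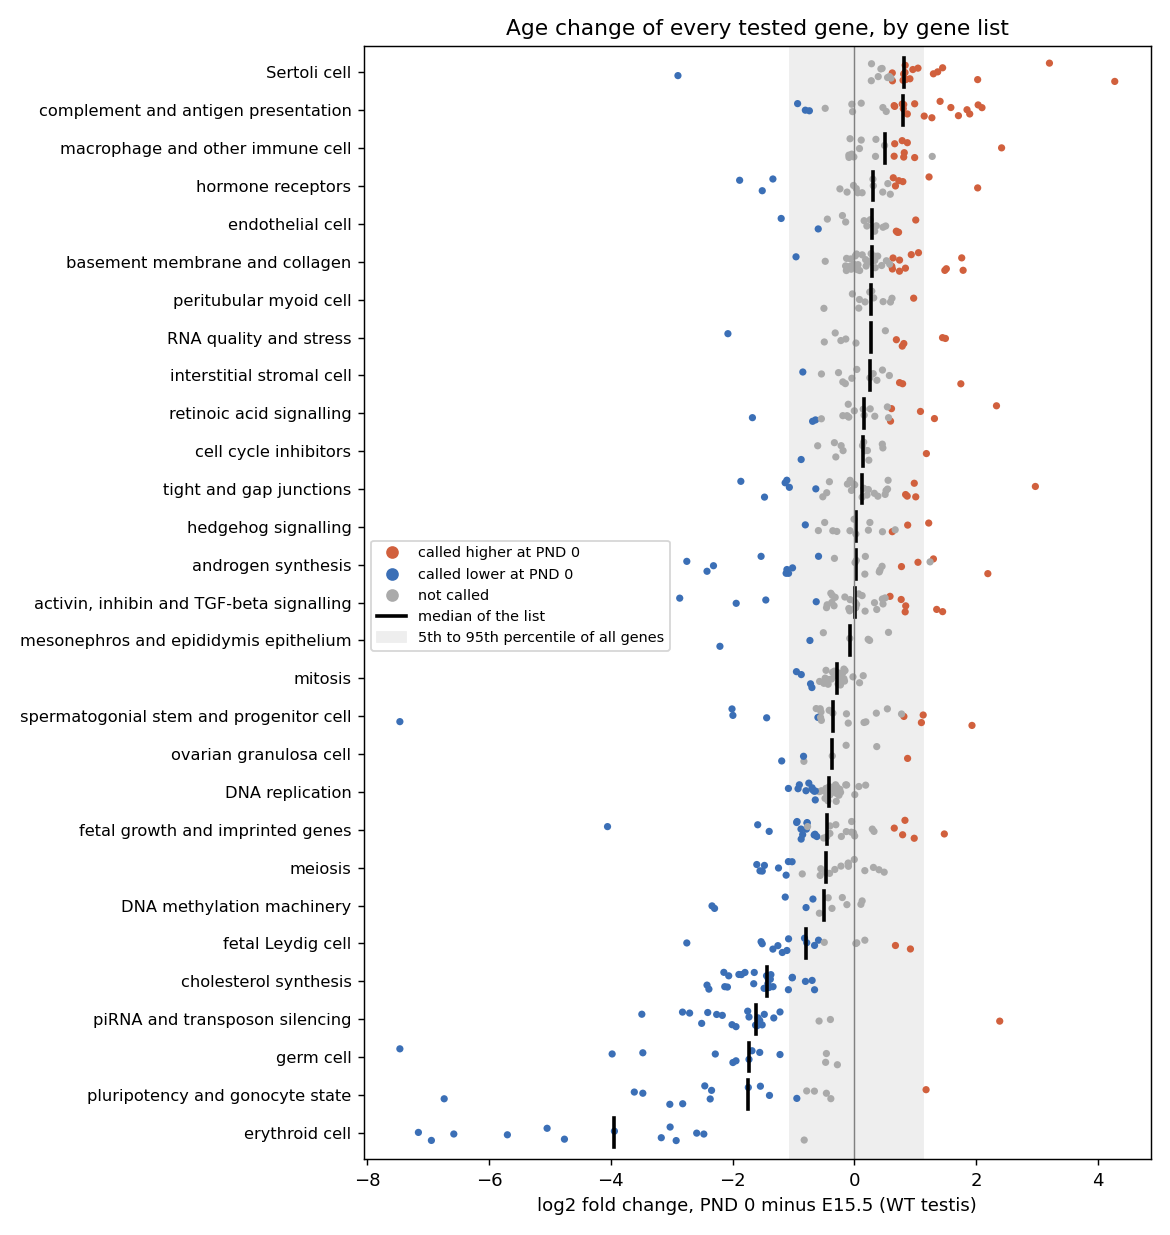
Log2 fold change (horizontal axis, PND 0 minus E15.5) of every tested gene of the 29 lists, in rows by list with the list median as a black bar. Points are genes, and the grey band runs from -1.06 to 1.14, the 5th to 95th percentile of all genes. All 26 cholesterol synthesis genes lie left of 0, and 25 of 26 Sertoli cell genes right of it.

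Germ cell transcripts fell. Of 13 germ cell markers 10 were called lower and 0 higher, against 10.8% and 11.4% of all genes. Their median log2 fold change was -1.73. Their summed level was 776, 989.8 and 642 CPM at E15.5 (replicates 1 to 3, the order used throughout) and 308, 355 and 234 CPM at PND 0. In bulk tissue fewer cells of a type and less RNA per cell cannot be told apart. The markers did not fall by a common amount, since Dazl, Sycp3 and Kit were not called and Nanos2 nearly vanished.

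Nanos2, an RNA-binding protein that directs germ cells into the male pathway, had 7.12, 9.76 and 2.81 CPM at E15.5 and 0, 0.0922 and 0 CPM at PND 0. This was 435 counts in all against 2, a ratio of 212 after scaling to library totals, with a 95% counting interval of 58.3 to 1750 (counting error only), and every PND 0 library lay below every E15.5 library. Dnd1, an RNA-binding protein that germ cells need to survive, had 75.6, 96.6 and 57.1 CPM and then 4.65, 6.13 and 3.72 CPM, 15.8-fold lower (edgeR, log2 fold change -3.98 ± 0.23 SE, adjusted p = 4.37e-06). The groups were far apart. Ddx4, the RNA helicase that marks germ cells at many stages, went from 110.3, 149 and 81.2 CPM to 36.1, 39.4 and 27.1 CPM (edgeR, log2 fold change -1.73 ± 0.21 SE, adjusted p = 0.000255), again with no overlap. By contrast Dazl, an RNA-binding protein of the germline, had 86.7, 112 and 51 CPM and then 70.7, 86.6 and 48.1 CPM. Its groups overlapped, and the change was not called (edgeR, log2 fold change -0.28 ± 0.27 SE, adjusted p = 0.433). Kit, a receptor found on germ cells and on some interstitial cells, was lower by under 1.5-fold (edgeR, log2 fold change -0.46 ± 0.09 SE, adjusted p = 0.00348). Within each age replicate 2 had the highest and replicate 3 the lowest sum of the list.

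Genes of pluripotency and of the early gonocyte were lower in 12 of 17 tested members and higher in 1. Of all genes 10.8% were lower and 11.4% higher. The median of the list, which shares Pou5f1 and Kit with the germ cell markers, was -1.74. Pou5f1 (OCT4), the transcription factor of pluripotent cells, was at 47.8, 62.2 and 28.8 CPM at E15.5 and at 4.41, 4.7 and 3.33 CPM at PND 0 (edgeR, log2 fold change -3.47 ± 0.28 SE, adjusted p = 2.48e-05). No PND 0 library reached the lowest at E15.5. Utf1, a chromatin-associated factor of pluripotent cells, fell from 80.4 ± 20.2 to 6.55 ± 0.818 CPM (SD, n = 3 each), and Dppa4, a nuclear protein of the same cells, from 75.1 ± 25.4 to 9.18 ± 1.29 CPM (SD, n = 3 each). Lin28a, which blocks the maturation of let-7 microRNAs, fell 5.16-fold. Sox2 and Nanog, the partners of OCT4, fell 5.08-fold and 2.91-fold from means of 4.65 and 2.89 CPM. Dppa3 (Stella), which protects methylated DNA in early embryos, had 22.8, 35.6 and 8.74 CPM and then 0.188, 0.323 and 0.0967 CPM (edgeR, log2 fold change -6.74 ± 0.65 SE, adjusted p = 7.17e-05). Its pseudogene Dppa3-ps fell as well, and reads that the copies may share make both values uncertain. The member that rose was Klf4, a zinc finger factor, from 17.5 ± 2.24 to 39.6 ± 6.67 CPM (SD, n = 3 each). Klf4 is known to be made by Sertoli cells too.

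**Figure D2:**
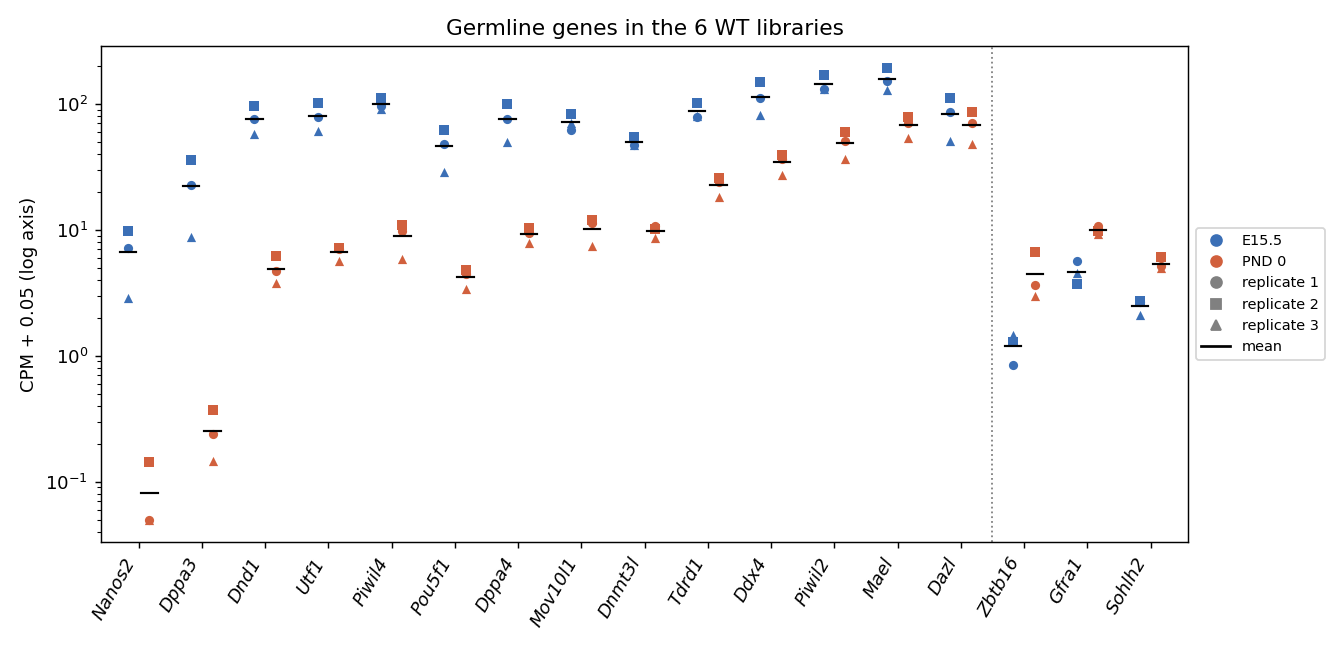
Levels of 17 germline genes (vertical log axis, CPM plus 0.05) in each of the 3 E15.5 (blue) and 3 PND 0 (orange) WT libraries, with circle, square and triangle for replicates 1 to 3 and black bars for the mean. The genes from Nanos2 to Mael lie lower at PND 0 without overlap, Dazl overlaps, and Zbtb16, Gfra1 and Sohlh2 lie higher.

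The piRNA list, which shares Ddx4, Mael, Tdrd1 and Piwil2 with the germ cell markers, fell in 20 of 23 tested genes and rose in 1. Its median was -1.62, and 10.8% of all genes were called lower and 11.4% higher. For 23 of the tested genes the libraries of the 2 ages did not overlap, against 54.4% of all genes. Piwil4 (MIWI2), the nuclear PIWI protein that guides methylation to transposons, had 96.4, 111 and 91.2 CPM and then 9.76, 10.9 and 5.8 CPM, 11.2-fold lower (edgeR, log2 fold change -3.49 ± 0.19 SE, adjusted p = 3.66e-06). The gene of the cytoplasmic PIWI protein MILI, Piwil2, went from 132, 171 and 131 CPM to 51, 60 and 36.6 CPM (edgeR, log2 fold change -1.55 ± 0.17 SE, adjusted p = 0.000148). Neither pair of groups overlapped, and the fold was smaller for Piwil2. Mov10l1, the helicase that feeds precursors to PIWI proteins, fell 7.07-fold, and Tdrd5, a Tudor protein of the same granules, fell 5.31-fold. Morc1, an ATPase for transposon silencing in the male germline, fell 4.79-fold. Spocd1 and Tex15, partners of Piwil4 in methylation, fell 3.08-fold and 2.79-fold. Tdrd6, a Tudor protein known from spermatocytes and spermatids, was the gene that rose, from 0.285 ± 0.0915 to 1.52 ± 0.202 CPM (SD, n = 3 each). Pld6 and Tdrd7 were lower by under 1.5-fold.

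Of 12 genes for adding and removing DNA methylation or reading it, 5 were lower and 0 higher, against 10.8% and 11.4% of all genes. Dnmt3l, the partner that activates the de novo methyltransferases in germ cells, had 47.2, 54.2 and 47.2 CPM and then 10.7, 10.1 and 8.6 CPM (edgeR, log2 fold change -2.34 ± 0.11 SE, adjusted p = 1.76e-06). Its level was even between the libraries of each age, and the groups did not overlap. Dnmt3c, a rodent copy of Dnmt3b that methylates young transposons, fell 4.91-fold from 4.65 ± 0.322 CPM (SD, n = 3), with the reservation that it may share reads with Dnmt3b. Dnmt3a, a de novo methyltransferase of many tissues, fell 1.73-fold. Dnmt1, Dnmt3b and Uhrf1, which dividing cells of many kinds use, were lower by under 1.5-fold (log2 fold changes -0.43, -0.37 and -0.57). Tet1, Tet2 and Tet3, which oxidise methylated cytosine, were not called, with log2 fold changes of -0.12, -0.20 and 0.11.

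Genes of spermatogonial stem and progenitor cells moved in both directions, with 4 of 23 higher and 5 lower, against 11.4% and 10.8% of all genes. Zbtb16 (PLZF), a repressor that keeps spermatogonial stem cells undifferentiated, rose from 0.796, 1.24 and 1.4 CPM to 3.57, 6.64 and 2.95 CPM (edgeR, log2 fold change 1.93 ± 0.35 SE, adjusted p = 0.00205). Gfra1, a receptor for the Sertoli cell factor GDNF, had 5.62, 3.68 and 4.48 CPM and then 10.7, 9.68 and 9.23 CPM (edgeR, log2 fold change 1.10 ± 0.17 SE, adjusted p = 0.00103). All PND 0 values of both genes were above all E15.5 values. Ret, the co-receptor of Gfra1, was called higher too (1.76-fold), though its groups overlapped, and Sohlh2, a transcription factor of differentiating spermatogonia, rose 2.19-fold. Other fits ended the calls of Ret (0.61 to 0.82 with any 1 of 4 libraries left out, and in the fit of all 9 WT libraries, in the fit of all 17 libraries or without replicate 1 of both ages) and Taf4b (-0.48 without E15.5 replicate 2 or PND 0 replicate 3), all log2 fold changes. Nanos2, Nanos3, Egr4, Taf4b and Uchl1 were the 5 that fell. In the absence of PND 0 replicate 2, 3 were called higher and 8 lower. Bcl6b, Sohlh1, Rarg and Snai2 were lower and Rara higher by under 1.5-fold, and T and Snai1 did not reach an adjusted p of 0.05. The paper, which measured germ cell transcripts by PCR relative to Ddx4, states that Bcl6b and T normally increase between these ages. The values here are levels in whole testis RNA, not scaled to Ddx4, which itself fell, so the 2 measures differ. Ddx4 fell by more (log2 fold change -1.73) than Bcl6b (-0.55) and T (-0.63). Relative to Ddx4 both were thus higher at PND 0, a ratio that was not tested. Of 23 meiosis genes 8 were lower and 0 higher, against 10.8% and 11.4% of all genes. Among the lower was Stag3, a cohesin subunit, which fell from 78.4 ± 5.8 to 26.8 ± 4.21 CPM (SD, n = 3 each). Stra8, the retinoic acid target that opens meiosis, had 0.796, 0.875 and 0.905 CPM and then 1.03, 0.691 and 0.677 CPM, with overlap.

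Sertoli cell transcripts moved the opposite way. Of 26 Sertoli cell markers 17 were called higher and 1 lower, against 11.4% and 10.8% of all genes. Their median log2 fold change was 0.82. For 25 of the markers the libraries did not overlap between the ages, against 54.4% of all genes. Their summed level was 6877, 6661 and 6968 CPM at E15.5 and 12870, 11870 and 12180 CPM at PND 0. The called rises ran from 1.54-fold for Dhh to 19.4-fold for Cst12.

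Cst12, a cystatin of the male reproductive tract, had 3.45, 3.04 and 2.81 CPM at E15.5 and 59.7, 67.2 and 53.9 CPM at PND 0 (edgeR, log2 fold change 4.28 ± 0.13 SE, adjusted p = 2.85e-07). Rhox8, a homeobox gene of the X chromosome, had 6.99, 7.37 and 9.73 CPM and then 76.9, 73.2 and 72.2 CPM (edgeR, log2 fold change 3.21 ± 0.12 SE, adjusted p = 6.4e-07). Both genes had groups that were tight and far apart. Fshr, the receptor through which pituitary FSH acts on Sertoli cells, went from 7.92, 9.85 and 9.46 CPM to 34.9, 33.7 and 42.3 CPM (edgeR, log2 fold change 2.03 ± 0.13 SE, adjusted p = 7.34e-06). Inha, which encodes the alpha subunit of inhibin, had 649, 549 and 623 CPM and then 1810, 1607 and 1558 CPM, 2.73-fold higher (edgeR, log2 fold change 1.45 ± 0.09 SE, adjusted p = 7.7e-06). Amh, the hormone that makes the Müllerian ducts regress, rose from 1429, 1389 and 1427 CPM to 2761, 2427 and 2387 CPM (edgeR, log2 fold change 0.84 ± 0.08 SE, adjusted p = 6.84e-05). For each of the 5 genes every PND 0 library exceeded every E15.5 library.

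Sox9, the transcription factor that sets Sertoli cell fate, rose 1.54-fold, its relative Sox8 1.95-fold and the transcription factor Dmrt1 2.58-fold. Clu (clusterin), a secreted chaperone and one of the 5 genes with the largest gain in CPM, rose from 1462 ± 38.4 to 2603 ± 54.2 CPM (SD, n = 3 each). Serpina5, a serine protease inhibitor, rose 4.29-fold, from 57.8 ± 12.7 to 248 ± 16 CPM (SD, n = 3 each), and Sel1l3 rose 3-fold. Gja1 (connexin 43), the main gap junction protein of Sertoli cells, rose 1.79-fold. Wt1 and Gata4, transcription factors of the gonad, and Gdnf, the ligand for Gfra1, were higher by under 1.5-fold (log2 fold changes 0.28, 0.46 and 0.44). The calls of Sox9 (0.54 to 0.58 without E15.5 replicate 2 or PND 0 replicate 1, and without replicate 1 of both ages or with the PND 0 libraries of 1 leading number summed) and Dhh (0.54 without PND 0 replicate 3) were lost in these fits. The exception was Rhox5, an androgen-responsive homeobox gene, with 7.87, 9.62 and 4.03 CPM at E15.5 and 1.46, 0.691 and 0.725 CPM at PND 0 (edgeR, log2 fold change -2.90 ± 0.38 SE, adjusted p = 0.000404). Rhox5 and Rhox8 thus went in opposite directions, each without overlap.

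**Figure D3:**
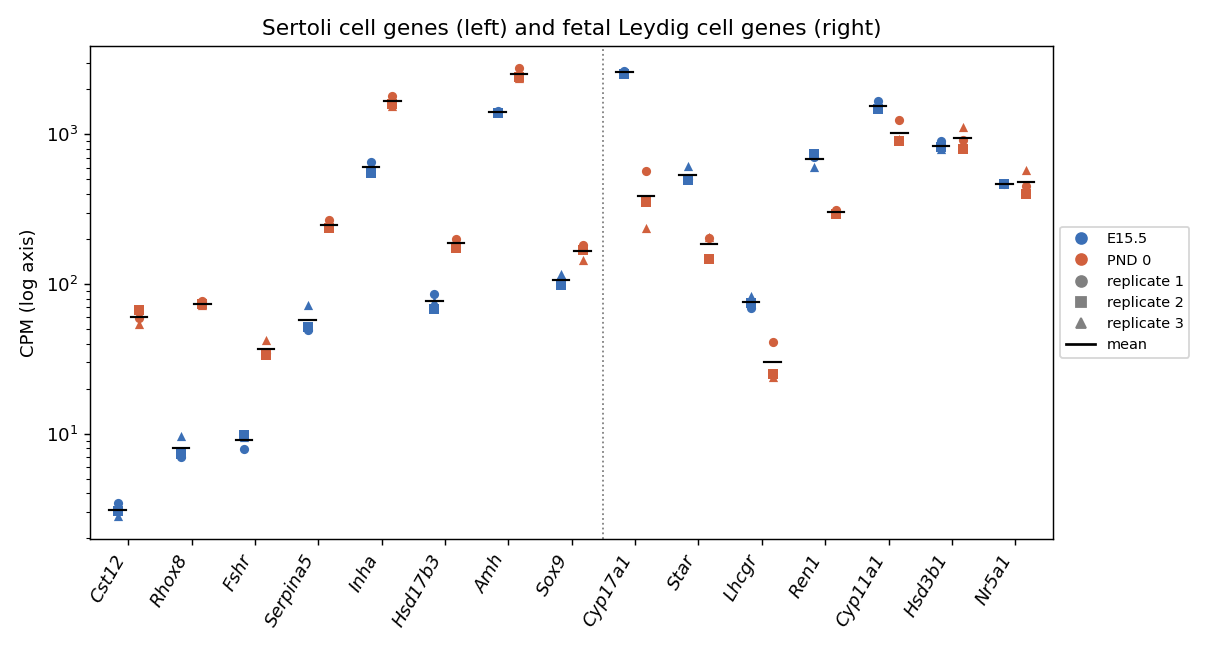
Levels of 8 Sertoli cell genes (left of the dotted line) and 7 fetal Leydig cell genes (right) on a vertical log axis in CPM, in the 3 E15.5 (blue) and 3 PND 0 (orange) WT libraries, with circle, square and triangle for replicates 1 to 3 and black bars for the mean. The 8 Sertoli cell genes lie higher at PND 0 without overlap, Cyp17a1, Star, Lhcgr, Ren1 and Cyp11a1 lower without overlap, and Hsd3b1 and Nr5a1 overlap.

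Among 33 tested genes of activin, inhibin and TGF-beta signalling 6 were higher and 4 lower, against 11.4% and 10.8% of all genes. The median was 0.01, and the share lower was near that of all genes, so it is no result about these genes. Both beta subunit genes rose, Inhba (activin A) from 55.5 ± 4.67 to 94.5 ± 12.2 CPM and Inhbb (activin B) from 249.8 ± 10.2 to 448 ± 41.8 CPM (SD, n = 3 each). Of the proteins that bind activin outside the cell, Fstl3 rose 2.55-fold, while Fst had 3.48 ± 0.142 and 4.49 ± 0.994 CPM (SD, n = 3 each), a change that was not called. The receptors Acvr1b, Acvr2a and Acvr2b and the signal carriers Smad2, Smad3 and Smad4 were not called. Lefty2, an inhibitor of Nodal signalling, fell from 36.1 ± 3.6 to 13.2 ± 3.1 CPM (SD, n = 3 each), and Gdf3, a TGF-beta ligand of pluripotent cells, fell 7.3-fold from a mean of 1.07 CPM. Tgfb1, the best known ligand of the family, fell 1.54-fold, and its receptor gene Tgfbr2 rose 1.5-fold. Neither call held throughout, with losses for Tgfb1 (-0.57 without PND 0 replicate 2) and Tgfbr2 (0.55 to 0.58 without E15.5 replicate 1 or E15.5 replicate 2 or PND 0 replicate 3, and with DESeq2's size factors, with library sizes alone, without the filter, in DESeq2 or in the fit of all 17 libraries).

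Fetal Leydig cell transcripts were mostly lower, 12 of 18 called lower and 2 higher, against 10.8% and 11.4% of all genes (median -0.80). Their summed level was 8573, 7985 and 8294 CPM at E15.5 and 5083, 3949 and 4182 CPM at PND 0. Without E15.5 replicate 1, 8 were called lower and 2 higher (median -0.62), and without PND 0 replicate 2 also 8 and 2 (median -0.80). Without replicate 1 of both ages 12 were lower and 0 higher. The test against 1.5-fold itself gave 7 lower and 0 higher. Cyp17a1, the enzyme that turns progestins into androgens, had 2633, 2514 and 2650 CPM and then 568, 352 and 237 CPM, 6.74-fold lower (edgeR, log2 fold change -2.75 ± 0.26 SE, adjusted p = 6.6e-05). The E15.5 libraries were nearly equal, while PND 0 replicate 1 had more than the other PND 0 libraries, still far below E15.5. Star, which carries cholesterol into mitochondria, had 502, 493 and 614 CPM and then 202, 147 and 207 CPM (edgeR, log2 fold change -1.53 ± 0.14 SE, adjusted p = 5.03e-05). Lhcgr, the receptor for luteinizing hormone, fell 2.53-fold, and Ren1, which encodes renin, fell from 684 ± 66.1 to 301 ± 10.9 CPM (SD, n = 3 each). Cyp11a1, the enzyme that opens steroid synthesis, fell 1.5-fold (edgeR, log2 fold change -0.59 ± 0.12 SE, adjusted p = 0.004), close to the limit for a call. The call was lost for Cyp11a1 (-0.61 to -0.50 without E15.5 replicate 1 or PND 0 replicate 2 or PND 0 replicate 3, and with at least 1 CPM in 3 libraries or in the fit of all 17 libraries).

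Other Leydig cell genes did not follow. Hsd3b1, the next enzyme of the pathway, had 904, 818 and 800.1 CPM and then 919.7, 801 and 1123 CPM, so its groups overlapped (edgeR, log2 fold change 0.17 ± 0.12 SE, adjusted p = 0.262). Nr5a1 (SF-1), the transcription factor of steroid-making cells, which Sertoli cells also express, had 469 ± 2.45 and 477 ± 93.8 CPM (SD, n = 3 each) and was not called. Insl3, the hormone of testis descent, was lower by under 1.5-fold (edgeR, log2 fold change -0.49 ± 0.10 SE, adjusted p = 0.003). The 2 that rose were Prlr, the prolactin receptor (1.6-fold), and Agtr1a, a receptor for angiotensin (1.89-fold). The call of Prlr (0.47 to 0.52 without PND 0 replicate 1, and without replicate 1 of both ages) was lost in these fits.

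Over the 22 tested genes of androgen synthesis 4 were higher and 9 lower, against 11.4% and 10.8% of all genes, with a median of 0.02. Hsd17b3, the enzyme for the last step to testosterone, had 85.8, 67.8 and 76.6 CPM at E15.5 and 200, 175 and 192 CPM at PND 0 (edgeR, log2 fold change 1.30 ± 0.10 SE, adjusted p = 1.86e-05), and Hsd17b1, a related enzyme of fetal Sertoli cells, rose 2.06-fold. In both, all PND 0 values were above all E15.5 values. Among electron donors for the steroid enzymes, Fdx1 fell 2.12-fold and Por 2.02-fold, while Fdxr and Cyb5a were not called. Akr1c14, which reduces active androgen further, rose from 5.92 ± 0.586 to 27.1 ± 6.34 CPM (SD, n = 3 each). Of 20 hormone receptors 6 were higher and 3 lower, against the same shares of all genes. Those higher included Esr1 and Esr2 (oestrogen receptors, 1.56-fold and 2.34-fold) and Thra (thyroid hormone receptor, 1.66-fold). Mc2r, the receptor for ACTH, Lhcgr, and Rxfp2, the receptor for Insl3, were the 3 that fell. The call of Esr1 (0.47 to 0.58 without E15.5 replicate 1 or PND 0 replicate 1, and without replicate 1 of both ages or with the PND 0 libraries of 1 leading number summed) did not hold in these fits.

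Every one of the 26 genes of cholesterol synthesis and uptake was called lower, against 10.8% of all genes, with a median of -1.43. In 26 of them the libraries of the 2 ages did not overlap, against 54.4% of all genes. Their summed level was 5329, 4922 and 5267 CPM at E15.5 and 2397, 2005 and 1995 CPM at PND 0. This pathway builds cholesterol from acetyl-CoA and is known to be driven by the transcription factor SREBP2, encoded by Srebf2, when cells run low on sterol. The promoter of Hmgcs1, the enzyme that makes HMG-CoA, is shown because it was the only 1 of 20 promoters of the list that held the sterol element searched, TCACNCCAC on either strand. The sequence is that of RefSeq (GRCm38.p6), 250 bases before to 50 after the start, 5′ to 3′ on the strand of the gene, with the match, whose first base lies 137 bases upstream of the start, in capitals.
Hmgcs1, chr13:119690101-119690400 (+): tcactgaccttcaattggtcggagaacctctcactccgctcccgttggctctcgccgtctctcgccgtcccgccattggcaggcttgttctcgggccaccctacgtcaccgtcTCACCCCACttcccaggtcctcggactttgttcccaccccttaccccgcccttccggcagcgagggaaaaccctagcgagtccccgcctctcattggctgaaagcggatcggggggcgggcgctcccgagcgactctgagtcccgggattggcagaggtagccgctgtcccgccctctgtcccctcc
The element was found in 1.24% of all 32851 promoters of the table. Only 17 of the 26 genes had a promoter there, and 1 of the 20 promoters (5%) held the element. The letters CCAAT, also searched on both strands, were in 16 of the 20 promoters (80%), against 37.4% of all promoters. A match is a description of the letters only.

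Hmgcs1 had 654, 608 and 646 CPM at E15.5 and 244, 219.7 and 260 CPM at PND 0 (edgeR, log2 fold change -1.40 ± 0.08 SE, adjusted p = 4.96e-06). Lss, which closes squalene epoxide into lanosterol, had 213, 204 and 227 CPM and then 45.1, 40.3 and 37.6 CPM (edgeR, log2 fold change -2.39 ± 0.09 SE, adjusted p = 6.4e-07). The libraries of each age were close together in both genes and far from those of the other age. Hsd17b7, which acts both in this pathway and on oestrogen, fell 5.35-fold, and Mvd, Tm7sf2 and Cyp51, enzymes of the middle and late steps, fell 4.42-fold, 4.37-fold and 4.24-fold. Srebf2 itself fell from 382 ± 1.09 to 236 ± 8.22 CPM (SD, n = 3 each). The smallest change in the list was that of Scarb1, the receptor for high-density lipoprotein, with 1053, 877 and 1032 CPM and then 876, 603 and 404 CPM (edgeR, log2 fold change -0.65 ± 0.22 SE, adjusted p = 0.0405). The call of Scarb1 (-0.74 to -0.42 with any 1 of 5 libraries left out, and in DESeq2 or with a robust dispersion) was lost in these fits, which called 25 of the 26 genes. The fit of all 9 WT libraries, which kept the call of Scarb1, also called 25. The test against 1.5-fold itself called 22.

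**Figure D4:**
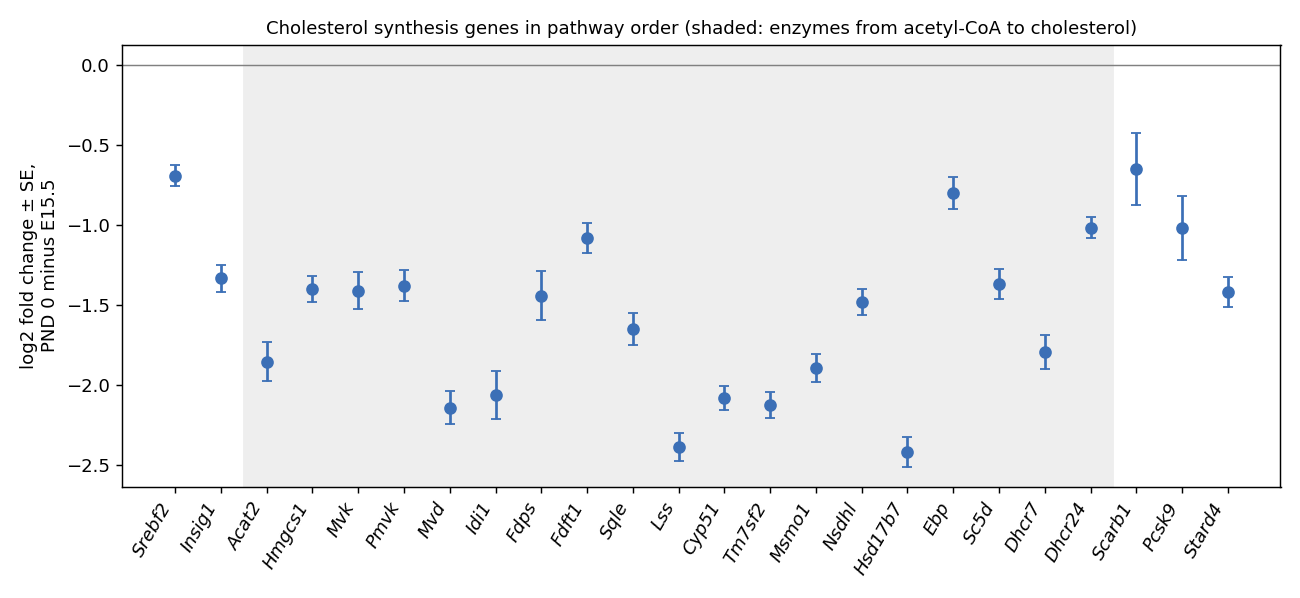
Log2 fold change ± SE (vertical axis, PND 0 minus E15.5, 3 WT libraries per age) of 24 of the 26 cholesterol genes, in pathway order within the shaded part from acetyl-CoA to cholesterol, with regulators before it and uptake and transport genes after it. Every point lies below 0, from -0.65 for Scarb1 to -2.42 for Hsd17b7.

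Cell cycle genes changed less. Of 35 DNA replication genes 10 were called lower and 0 higher (median -0.41), and of 30 mitosis genes 4 were lower and 0 higher (median -0.29). The mitosis share was near the 10.8% of all genes called lower, so that share by itself is no result. Below 0 lay 32 of the 35 replication genes and 28 of the 30 mitosis genes. The libraries of the 2 ages did not overlap for 30 and 24 of them, against 54.4% of all genes. By adjusted p alone 26 and 22 were lower, against 3752 of the 17441 genes tested. Pola1, the catalytic subunit of the polymerase that starts new strands, had 47, 57.5 and 54.3 CPM and then 23.1, 20.3 and 31.7 CPM (edgeR, log2 fold change -1.08 ± 0.15 SE, adjusted p = 0.000582). The groups did not overlap. Rrm2, which makes deoxyribonucleotides, fell 1.9-fold, and Cenpf, a kinetochore protein, fell from 153 ± 26.1 to 79.4 ± 2.85 CPM (SD, n = 3 each). Mki67, the gene of the proliferation marker Ki-67, had 315, 463 and 484 CPM and then 328, 292 and 316 CPM, and its groups overlapped (edgeR, log2 fold change -0.43 ± 0.14 SE, adjusted p = 0.0357). Mcm7, Cdk1, Aurkb and Tk1, of the replication fork, the mitotic kinases and nucleotide supply, were not called. Of the inhibitors of the cell cycle, Cdkn2c (p18) rose from 22.1 ± 1.08 to 50.3 ± 0.788 CPM (SD, n = 3 each) and Cdkn1c (p57), an imprinted gene, fell 1.83-fold, while Cdkn1a and Cdkn1b were not called.

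Promoters of such genes are known for E2F sites (replication) and for the CHR element (mitosis), and windows around 1 match are shown for the called genes that had one, from RefSeq (GRCm38.p6), 5′ to 3′ on the strand of the gene, with the match in capitals. For E2F the letters searched were TTTGGCGC, TTTCGCGC and TTTCCCGC, and for CHR they were TTTGAA, each on both strands. The first 5 windows hold an E2F match and the last 2 a CHR match.
Cdc6, chr11:98907998-98908035 (+): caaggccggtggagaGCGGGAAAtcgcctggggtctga
Pola1, chrX:93632271-93632308 (-): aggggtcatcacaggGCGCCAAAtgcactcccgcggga
Pold1, chr7:44548766-44548791 (-): gcggcgtatcttgtgGCGGGAAAagc
Lig1, chr7:13278837-13278874 (+): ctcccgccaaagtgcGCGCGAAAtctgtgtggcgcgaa
E2f2, chr4:136172298-136172323 (+): tttggcggcatatagTTTGGCGCtaa
Cenpf, chr1:189688064-189688099 (-): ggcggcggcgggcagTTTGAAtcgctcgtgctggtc
Anln, chr9:22389165-22389200 (-): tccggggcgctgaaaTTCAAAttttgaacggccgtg
An E2F match was found in 13 of 33 promoters of the replication list (39.4%), against 1.84% of all promoters, with 28 of 35 genes matched. A CHR match was found in 20 of 27 promoters of the mitosis list (74.1%), against 17.9% of all, with 25 of 30 genes matched. The same search on both strands gave 0 matches in 3 other lists. These were the SF-1 letters TCAAGGTCA and CAAGGTCA in 19 promoters of androgen synthesis genes (0.423% and 1.56% of all promoters), the GLI letters TGGGTGGTC in 11 of hedgehog genes (0.253%) and the E-box TCACGTGA in 25 of piRNA genes (0.974%). Promoters were at hand for 16 of 24, 11 of 15 and 17 of 23 genes of these lists, and no match says only that the letters are not in the window. An E2F match was held by 13 genes of the replication list and a CHR match by 18 of the mitosis list. Most of them were not called, such as Mcm7 and Orc1 (E2F) and Cdk1 (CHR), and windows are shown only for called genes. With 1 library left out, the calls of Lig1 (-0.55 without PND 0 replicate 2) and Pold1 (-0.57 without PND 0 replicate 2) were lost.

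Genes of fetal growth, many of them imprinted, were lower in 14 of 33 and higher in 5, against 10.8% and 11.4% of all genes. The median was -0.45. Hmga2, a chromatin protein of fetal tissue, had 101, 112 and 102 CPM and then 5.59, 6.59 and 6.82 CPM, 16.6-fold lower (edgeR, log2 fold change -4.05 ± 0.10 SE, adjusted p = 1.14e-07). Its groups were narrow and far apart. Igf2, the fetal growth factor, had 1571, 1590 and 1658 CPM and then 569.7, 1043 and 1063 CPM (edgeR, log2 fold change -0.85 ± 0.20 SE, adjusted p = 0.00732), with the lowest value in PND 0 replicate 1. Igf1, the growth factor of later life, went the other way, from 163, 169 and 179.7 CPM to 540.2, 434 and 452 CPM (edgeR, log2 fold change 1.48 ± 0.09 SE, adjusted p = 7.88e-06). All values of Igf1 at PND 0 were above those at E15.5. Igf2bp1 and Igf2bp2, which bind the Igf2 transcript, fell 1.73-fold and 1.92-fold, and Sox11, a fetal transcription factor, fell 3-fold. Igfbp5, which binds the IGF proteins and was among the 5 genes with the largest loss in CPM, fell from 1959 ± 169.6 to 746 ± 219 CPM (SD, n = 3 each). The imprinted Mest, Grb10, Peg3, Zim1 and Nnat were lower and the imprinted neighbours Dlk1 and Meg3 higher (1.98-fold and 1.58-fold), whereas H19 was not called. Of these calls, single libraries decided Meg3 (0.53 to 0.57 without E15.5 replicate 2 or PND 0 replicate 2), Peg3 (-0.58 to -0.52 without E15.5 replicate 3 or PND 0 replicate 2) and Zim1 (-0.51 without E15.5 replicate 3).

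Basement membrane and collagen genes were higher in 12 of 42 and lower in 1, against 11.4% and 10.8% of all genes (median 0.29). Chains of one protein family differed in whether they were called. Lamc3 and Lama2, laminin chains, rose 3.45-fold and 3.4-fold, Lamb1 and Lamb2 rose 1.67-fold and 1.53-fold, and Lama1, Lama4, Lama5 and Lamc1 were not called. Lama2 had 98, 154 and 156 CPM at E15.5 and 534, 452 and 398 CPM at PND 0 (edgeR, log2 fold change 1.76 ± 0.18 SE, adjusted p = 8.46e-05). Among type IV collagens, Col4a4 had 46.7, 59.4 and 64.1 CPM and then 149, 169.7 and 166 CPM (edgeR, log2 fold change 1.51 ± 0.12 SE, adjusted p = 2.05e-05), and Col4a3 rose 2.8-fold. No groups of these 3 genes overlapped. The chains of the common network, Col4a1 and Col4a2, and also Col4a5 and Col4a6, were not called (log2 fold changes 0.34, 0.35, 0.26 and 0.34). Lox, which crosslinks collagen and elastin, rose 2.08-fold, and Sparc, a matrix glycoprotein, rose from 2293 ± 71.3 to 3537 ± 237 CPM (SD, n = 3 each). Tnc (tenascin C) was the 1 that fell, 1.94-fold.

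In the interstitium, 3 of 15 stromal genes were higher and 1 lower, against 11.4% and 10.8% of all genes. Ogn (osteoglycin) rose from 67.7 ± 2.68 to 228 ± 27.9 CPM and Dcn (decorin), both small matrix proteins, from 506 ± 2.94 to 877 ± 60.1 CPM (SD, n = 3 each). Wnt5a, a secreted Wnt ligand, fell 1.8-fold, and Tcf21 and Nr2f2, transcription factors of stromal cells, were not called. Of 15 hedgehog pathway genes 3 were higher and 1 lower, against 11.4% and 10.8% of all genes. Dhh, the ligand that Sertoli cells send to the interstitium, rose 1.54-fold. A single library decided the call of Dhh (0.54 without PND 0 replicate 3). Hhip, a target gene whose product binds hedgehog, had 33.6, 32.2 and 39.1 CPM and then 108, 85.5 and 50.7 CPM (edgeR, log2 fold change 1.22 ± 0.23 SE, adjusted p = 0.00239), without overlap. The target gene Gli1 was higher by under 1.5-fold (log2 fold change 0.46), Ptch1 was not past the test (adjusted p = 0.0831, edgeR), and Gli2, a transcription factor of the pathway, fell 1.75-fold.

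Of 20 retinoic acid genes 5 were higher and 3 lower, against 11.4% and 10.8% of all genes. The degrading enzyme Cyp26b1, which keeps retinoic acid from fetal germ cells, rose from 114 ± 9.14 to 175 ± 11.1 CPM and the making enzyme Aldh1a1 from 1070 ± 18.4 to 1617 ± 73.5 CPM (SD, n = 3 each), while Aldh1a2, a related making enzyme, fell 1.61-fold. Other fits ended the calls of Aldh1a1 (0.57 to 0.58 without E15.5 replicate 1 or PND 0 replicate 1 or PND 0 replicate 3, and with library sizes alone, in the fit of all 17 libraries or without replicate 1 of both ages) and Cyp26b1 (0.57 to 0.58 without E15.5 replicate 1 or E15.5 replicate 3 or PND 0 replicate 3, and without replicate 1 of both ages). Without PND 0 replicate 3 the counts were 3 higher and 4 lower.

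Peritubular and surface genes depended on single libraries. Acta2, the smooth muscle actin of peritubular cells, had 485, 524 and 526 CPM at E15.5 and 221, 583 and 824 CPM at PND 0, so the PND 0 values lay on both sides of E15.5 (edgeR, log2 fold change 0.08 ± 0.35 SE, adjusted p = 0.864). Msln, which encodes mesothelin of the surface layer, had 3.27, 2.9 and 2.72 CPM and then 0.422, 32.1 and 34.8 CPM, with overlap, and was called higher (edgeR, log2 fold change 2.92 ± 0.94 SE, adjusted p = 0.0319). Several other fits ended the call of Msln (1.41 to 2.99 with any 1 of 5 libraries left out, and in DESeq2, in limma voom or with a robust dispersion). The low value of both genes was that of PND 0 replicate 1. Of 12 myoid genes 1, Des (desmin, 1.97-fold), was called higher and 0 lower, against 11.4% and 10.8% of all genes. Without this library 6 were higher and 0 lower, and the median moved from 0.27 to 0.55. Without PND 0 replicate 3 the median was -0.15. Wnt4, a Wnt ligand of the early gonad, had 124, 108 and 102 CPM and then 37.3, 48.7 and 60.3 CPM (edgeR, log2 fold change -1.19 ± 0.15 SE, adjusted p = 0.000345). Emx2, a homeobox factor of the early gonad, fell from 43.8 ± 3.15 to 9.49 ± 3.75 CPM (SD, n = 3 each). Wnt4 was listed as an ovarian granulosa cell marker (7 tested, 1 higher and 2 lower). Emx2 was listed as a marker of mesonephros and epididymis epithelium (7 tested, 0 higher and 2 lower). The counts of both lists stand against 11.4% higher and 10.8% lower among all genes. The mesonephros list summed to 100.4, 86.44 and 95.85 CPM at E15.5 and 64.93, 59.32 and 69.46 CPM at PND 0, and the part of adjacent tissue was not tested.

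**Figure D5:**
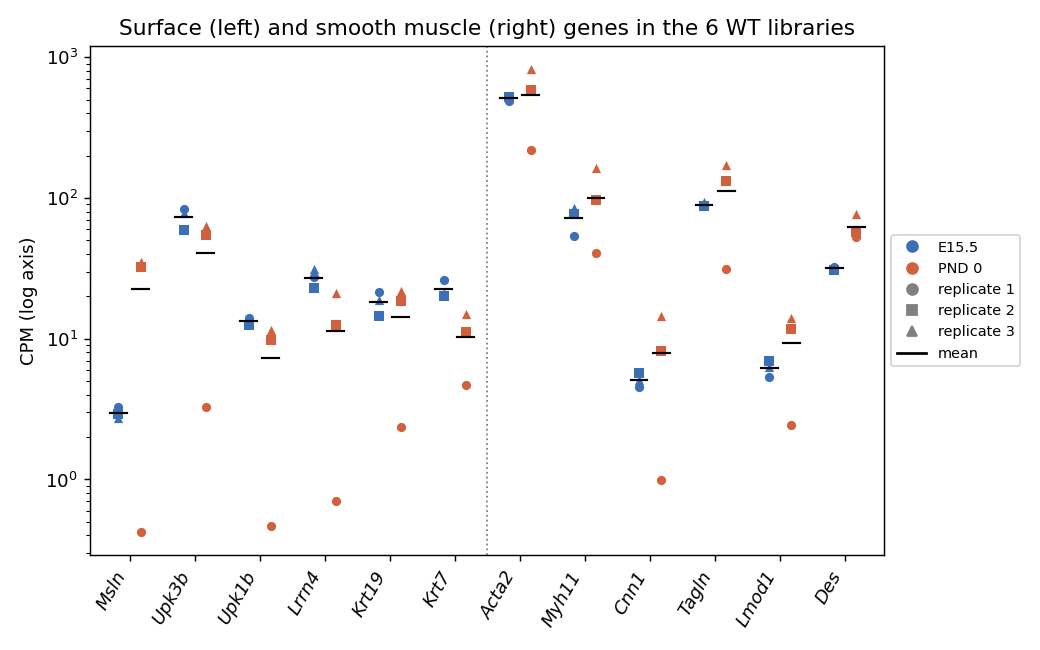
Levels of 6 surface genes (left of the dotted line) and 6 smooth muscle genes (right) on a vertical log axis in CPM, in the 3 E15.5 (blue) and 3 PND 0 (orange) WT libraries, with circle, square and triangle for replicates 1 to 3 and black bars for the mean. PND 0 replicate 1 (orange circles) lies lowest of the PND 0 libraries in all 12 genes, for Msln at 0.422 CPM against 32.1 and 34.8 CPM.

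Endothelial genes were higher in 4 of 16 and lower in 2, against 11.4% and 10.8% of all genes. The share lower was near that of all genes and is no result about these genes. Cdh5 (VE-cadherin) rose from 226 ± 22.5 to 374 ± 35.6 CPM and Plvap, a protein of permeable capillaries, fell from 38.6 ± 1.57 to 16.8 ± 1.84 CPM (SD, n = 3 each). Pecam1 and Kdr, general endothelial markers, were not called, and without PND 0 replicate 1 the counts were 2 higher and 2 lower. Among 29 junction genes 5 were higher and 6 lower, against the same shares of all genes. The junction counts were 8 and 4 without PND 0 replicate 1, and 6 and 3 without E15.5 replicate 2. Ocln (occludin), a tight junction protein, had 4.91, 6.08 and 6.38 CPM at E15.5 and 51.6, 55 and 29.9 CPM at PND 0, 7.86-fold higher (edgeR, log2 fold change 2.97 ± 0.23 SE, adjusted p = 2.1e-05), with no overlap. Cldn11, the claudin of Sertoli cell junctions, was higher by under 1.5-fold (log2 fold change 0.55).

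Complement and antigen presentation genes were higher in 16 of 25 and lower in 3, against 11.4% and 10.8% of all genes (median 0.80). Macrophage and other immune cell genes were higher in 8 of 19 and lower in 0, against the same shares of all genes. Their median was 0.50, and 7 genes stand in both lists. C1s1, a protease of the first complement component, had 8.31, 8.93 and 9.14 CPM and then 38.6, 34.8 and 34.8 CPM (edgeR, log2 fold change 2.03 ± 0.10 SE, adjusted p = 1.92e-06). The groups were narrow and did not overlap. Its partner C1ra rose 3.61-fold, and C2 and C3 rose 4.28-fold and 2.66-fold. C4a and C4b, near-identical neighbours whose reads may be shared, were lower. The peptide transporter subunits Tap1 and Tap2 rose 3-fold and 3.72-fold, and H2-D1, a class I molecule, rose 2.22-fold. The macrophage markers Adgre1, Cx3cr1 and Mrc1 had log2 fold changes of -0.04, -0.09 and 0.08 and were not called, while Ptprc, the antigen CD45 of leukocytes, rose 1.77-fold and Csf1, the growth factor of macrophages, 1.63-fold. Lyve1, a marker of lymphatic vessels and of some macrophages, had 1.11, 1.79 and 1.72 CPM and then 1.88, 10.4 and 12.5 CPM (edgeR, log2 fold change 2.42 ± 0.57 SE, adjusted p = 0.00818), with PND 0 replicate 1 next to the E15.5 values.

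The rises of at least 5 CPM at PND 0 without overlap were led by Abcb5, a membrane transporter, at 0.133, 0.829 and 0.407 CPM and then 12, 8.25 and 8.94 CPM (edgeR, log2 fold change 4.41 ± 0.39 SE, adjusted p = 4.57e-05). Pnmt, the enzyme that makes adrenaline, had 2.17, 2.07 and 3.03 CPM and then 55.9, 40.8 and 49 CPM (edgeR, log2 fold change 4.32 ± 0.17 SE, adjusted p = 9.15e-07). Cyp27a1, the mitochondrial enzyme that hydroxylates cholesterol, had 6.59, 6.08 and 6.52 CPM and then 108, 84.4 and 63.7 CPM (edgeR, log2 fold change 3.74 ± 0.19 SE, adjusted p = 2.13e-06). None of these groups overlapped. Dpt (dermatopontin), a matrix protein, rose 18.8-fold to 52.6 ± 7.34 CPM, and Lgals3bp, a secreted glycoprotein, rose 10.4-fold to 46.2 ± 8.53 CPM (SD, n = 3 each). The leading falls held Nanos2, Dppa3, Dppa3-ps, Khdc1a and a set of red cell genes, among which the embryonic globin Hba-x had 22.1, 20.3 and 17.9 CPM and then 0.0939, 0 and 0.387 CPM. The adult globin genes Hba-a1 and Hba-a2 are near-identical copies, and the split of reads between them is uncertain.

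The same ages were compared in the KO testes, which share no library with the WT comparison. At each age 1 leading number of the titles occurs in both genotypes, what it marks is not stated, and the fits treated all libraries as independent. In KO 9.62% of 16928 tested genes were called higher and 9.56% lower. Of the WT calls, 3625 had been tested in KO, and 2337 were called there in the same direction, which is 64.5% of those WT calls and 73.2% of the KO calls. The 1 gene called in opposite directions was Inha, the deleted gene. The difference of the age change between WT and KO was past an adjusted p of 0.05 for 4 of 18635 genes (0.0215%, edgeR's interaction test), while 2073 were past an unadjusted p of 0.05. Cyp17a1 had a log2 fold change of -2.75 in WT and -3.50 in KO, Pou5f1 -3.47 and -4.19, Hmgcs1 -1.40 and -1.28, and Cst12 4.28 and 4.14. For none of these 4 genes was a difference of the age change shown.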

How the data were processed

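RNA from mouse testes was sequenced by the company BGI on a DNBSEQ-G400, and reads were filtered with its SOAPnuke software. For the study, reads were aligned to GRCm38 with STAR in the RNAsik pipeline. Raw counts per gene (featureCounts) were deposited, here 21066341 to 22042380 per library. Whether counting used strand is not given in the sources used here, nor is the version of the aligner. Counts were used as deposited. Names follow GENCODE M21 (19028 of 19110 genes matched). The 3 WT libraries at PND 0 were compared with the 3 at E15.5 in edgeR 4.0.16 (R 4.3.3) by the quasi-likelihood test after TMM scaling and filterByExpr, which left 17441 genes. Called genes had a Benjamini-Hochberg adjusted p below 0.05 and a change of at least 1.5-fold. CPM were scaled by TMM, and log2 CPM (principal components and correlations) used a prior count of 2. Named genes were the 12 with the largest change in each direction (at least 5 CPM in the higher group, no overlap), the 5 with the largest gain or loss in CPM, and members of lists with small adjusted p or a textbook role, beside a panel that the study measured by PCR. The members and lists were chosen with earlier results of these data known. Alternatives used limma 3.58.1 (voom) and DESeq2 1.42.0, other filters, scalings and thresholds, and fits with libraries left out. Values of some genes are not reported here. Promoters came from RefSeq. Figures were drawn with matplotlib 3.10.9.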

Additional observations from a re-analysis of the deposited data

Results flagged for a closer look

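The change from E15.5 to PND 0 differed between WT and KO testes for 4 genes by edgeR's interaction test (Benjamini-Hochberg adjustment over 18635 genes), and each is given here because the change was not the same in the 2 genotypes. Cbln1, a secreted synapse organiser, had 251, 212 and 244 CPM at E15.5 and 699, 646 and 636 CPM at PND 0 in WT, and its log2 fold change was 1.49 in WT and 0.41 in KO, a difference of 1.06 (SE 0.10, adjusted p = 0.00012). Ccl17, a chemokine, had 13.1, 13.2 and 14.3 and then 40.3, 38.9 and 43.2 CPM in WT, with log2 fold changes of 1.60 in WT and 0.17 in KO, a difference of 1.41 (SE 0.16, adjusted p = 0.00179). Pnmt rose in both, by 4.32 in WT and 2.76 in KO on the log2 scale, a difference of 1.54 (SE 0.23, adjusted p = 0.0332). The paper reports Ccl17 and Pnmt as increased in Inha KO testes at every age it sequenced. A smaller rise in KO is thus not a lower level in KO, and KO levels are not given here. Tmem114, a membrane protein gene, had 9.07, 7.59 and 8.83 and then 21.5, 27.7 and 26.2 CPM in WT and rose more in KO, 3.05 against 1.56, a difference of -1.50 (SE 0.23, adjusted p = 0.0332). The number of such genes was 8 when the 12 libraries of both ages and genotypes were fitted alone, and 124 with DESeq2.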

How the results depend on the processing

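The count of called genes was 3869 (1980 higher, 1889 lower). It was 3854 with DESeq2's size factors, 3868 with library sizes alone, 4093 without the filter, 3429 with at least 1 CPM in at least 3 libraries, 3642 with DESeq2, 3835 with limma voom and 3745 with the 2 PND 0 libraries of 1 leading number summed. An adjusted p alone gave 7438 (3686 higher, 3752 lower), an absolute log2 fold change over 1.5 gave 936 (484 and 452), and a test against 1.5-fold itself (glmTreat) gave 1665 (861 and 804). With 1 library left out it ranged from 3263 to 4255 (1663 to 2181 higher, 1600 to 2074 lower). The difference between WT and KO held 4 genes, 8 in the fit of 12 libraries and 124 with DESeq2, and the cause was not tested. Of 162 printed genes that were called, 137 were called in every setting other than the 2 stricter thresholds, and none turned its sign. Without replicate 1 of both ages the calls of Agtr1a, C4a, Lamb1, Nanos3, Ptprc and Rxfp2 were lost, and in limma voom that of Lyve1. The sign turned only in genes that were not called. With 1 library, or replicate 1 of both ages, left out, their log2 fold changes ran for Acta2 (-0.35 to 0.46), Acvr2a (-0.17 to 0.13), Adgre1 (-0.15 to 0.0724), Aurkb (-0.072 to 0.012), Cx3cr1 (-0.33 to 0.0597), Cyb5a (-0.0007 to 0.0647), Fasn (-0.16 to 0.0207), H19 (-0.38 to 0.083), Lama1 (-0.12 to 0.34), Lama4 (-0.11 to 0.15), Lama5 (-0.17 to 0.0644), Mrc1 (-0.0324 to 0.21), Nr5a1 (-0.14 to 0.14), Smad3 (-0.029 to 0.0397), Stra8 (-0.38 to 0.0029) and Tet3 (-0.0087 to 0.21). In scaling by library size alone the sign turned for Smad3 (-0.0091) and Acvr2a (-0.008). In limma voom the sign turned for Acvr2a (-0.004) and Acta2 (-0.11). In the fit of all 17 libraries the sign turned for Smad3 (-0.0049) and Acvr2a (-0.0053). In the fit with the 2 PND 0 libraries of 1 leading number summed the sign turned for Acvr2a (-0.0451) and Cx3cr1 (0.0011). No paired analysis was possible because no leading number of the titles is shared between the 2 ages, so no replicate block could be fitted. A gene at 1 CPM rests on about 21 counts per library, so low genes such as Zbtb16, Sox2 and Tdrd6 carry more counting error.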

Other observations

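The gene lists used here were assembled after values had been seen, so their counts are descriptions. Interferon-stimulated genes, which cells switch on through STAT and IRF factors in response to interferon, were higher in 29 of 37 and lower in 0. The shares of all genes were 11.4% and 10.8%. The median log2 fold change of the interferon-stimulated genes was 1.25. Their summed level was 362, 332 and 336 CPM at E15.5 and 653, 729 and 538 CPM at PND 0, and the groups of the sum did not overlap. Irf7, a transcription factor of the response, had 2.65, 1.56 and 1.9 CPM and then 11.2, 14.4 and 8.36 CPM (edgeR, log2 fold change 2.47 ± 0.25 SE, adjusted p = 9.96e-05). Xaf1, a target gene, went from 5.13, 4.33 and 4.71 CPM to 27.1, 22.8 and 23.1 CPM (edgeR, log2 fold change 2.36 ± 0.13 SE, adjusted p = 3.51e-06). Both genes were higher in all 3 PND 0 libraries. Stat2 and Irf1, factors of the same response, were not called.

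Chaperones of the cytosol and endoplasmic reticulum went down, 15 of 29 lower and 1 higher, against 10.8% and 11.4% of all genes (median -0.65). A list of 12 genes of RNA quality and tissue stress (immediate early and heat shock genes) had 5 higher and 1 lower. Of all genes 11.4% were higher and 10.8% lower. In the fit of all 9 WT libraries the list had 1 higher and 1 lower. Its summed level was 501, 486 and 561 CPM at E15.5 and 516, 467 and 523 CPM at PND 0, with overlap, and its part in other results was not tested. Hsph1, a partner of HSP70, had 94.5, 124 and 91 CPM and then 19.4, 23.2 and 30.8 CPM (edgeR, log2 fold change -2.08 ± 0.17 SE, adjusted p = 3.41e-05), and Hspa8, the constitutive HSP70, fell from 909.6 ± 46 to 454 ± 106 CPM (SD, n = 3 each). Hspb1 was the 1 that rose (2-fold), and Cirbp, an RNA-binding protein induced by cold, rose from 54.8 ± 9.16 to 180 ± 20.5 CPM (SD, n = 3 each). Among 12 genes of fatty acid synthesis 5 were lower and 0 higher, against 10.8% and 11.4% of all genes. The falls were led by Scd1, a desaturase (3.25-fold), while Fasn, the fatty acid synthase, was not called. Abca1, which exports cholesterol from cells, rose from 88.8 ± 12.9 to 270.1 ± 84.6 CPM (SD, n = 3 each). Glial genes split, with Sox10, a transcription factor of glia, falling 4.7-fold and S100b, a calcium-binding protein, rising 12.3-fold. Of 7 tested genes of the Rhox homeobox cluster 2 were higher and 4 lower, against 11.4% and 10.8% of all genes.

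Genes annotated as antisense RNAs were called higher in 24.2% and lower in 8.52% of 364 tested, and lincRNAs in 21.4% and 13.2% of 355, against 10.9% and 11.2% of 15098 protein-coding genes. The strand setting of the counting is not given in the sources used here, so reads of an antisense gene and its partner cannot be told apart. Mitochondrial transcripts held 1.82 to 2.51% of counts at E15.5 and 2.63 to 3.22% at PND 0, and 12 of 24 tested genes of the mitochondrial chromosome were called higher and 1 lower, against 11.4% and 10.8% of all genes. Of the 11 tested that encode proteins 2 were higher and 0 lower, and 5 were higher without E15.5 replicate 2.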
